A study of Mus musculus with 2 samples.

Results

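Chemokine ligands are small secreted proteins that guide leukocytes by gradients, and they were taken as every gene of both tables named Ccl, Cxcl or Cx3cl1 with a number, 36 of the 21878 genes listed. The study sequenced poly(A) RNA from 2 cultures of primary chondrocytes of C57BL/6 mice, cells that make and maintain cartilage. The first carried a lentiviral short hairpin RNA against Gpx4, which encodes a peroxidase that clears lipid hydroperoxides (shGpx4, labelled as a knockdown), and the second a control hairpin (shNC, labelled as control), with 1 library per group. Both were grown with fetal bovine serum and received lentivirus, and neither the age of the mice nor the number of animals pooled is given. The stated purpose was to learn how GPX4 acts.

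Chemokines are grouped by the spacing of their first cysteines into CC, CXC and CX3C families, and they act through G protein-coupled receptors on leukocytes. CXC ligands with a glutamate-leucine-arginine motif draw neutrophils through CXCR2, ligands of CXCR3 are induced by interferon and draw T cells, ligands of CCR2 draw monocytes, and homeostatic ligands such as CXCL12 position cells without inflammation. In joints, chondrocytes and synovial fibroblasts release inflammatory chemokines when exposed to interleukin-1 or tumour necrosis factor, largely through NF-kB.

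Levels are the deposited FPKM, reads scaled by gene length and library total, with totals of 21313211 reads for shGpx4 and 19729142 reads for shNC. Gpx4 was at 96.2 FPKM in shGpx4 and 161 FPKM in shNC, or 59.9% of the control level. A gene was called measured at a mean of at least 1 FPKM over both libraries, which 10997 genes reached. A ratio is the log2 of (FPKM + 1) of the shGpx4 library divided by that of the shNC library. Each interval is the exact 95% range that counting error alone gives the plain FPKM ratio, also in log2, and reads of an amplified library are not independent molecules. With 1 library per group no difference was tested, and the hairpin and the culture cannot be told apart. Of the labelled cell type's markers, Col2a1 (58.4 FPKM in shGpx4, 8.96 FPKM in shNC), Comp (1421 and 1666 FPKM), Lect1 and Sox9 were measured, while Acan, Matn1, Col9a1 and Col11a2 lay at or below 0.374 FPKM in each library.

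Of the 36 chemokine ligands 16 were measured, 11 lay above 0 in at least 1 library without reaching the measured mean, and 9 were listed at 0 in both. Among the 16, Ccl9 and Cxcl1 were at least 1.5-fold higher in shGpx4, Cx3cl1 and Cxcl12 were at least 1.5-fold lower, and 12 lay between. Over all measured genes 2.99% were at least 1.5-fold higher and 1.96% at least 1.5-fold lower, against 12.5% of the measured chemokines in each direction, which is 2 genes each. The median ratio of the 16 was -0.15, and that of all measured genes was -0.04. Over all ligands above 0 in at least 1 library the median was -0.087. Of the 16 ratios 7 were above 0, against 41.3% of all measured genes. In 3 ligands (18.8%) the whole counting interval was above 0 and in 6 (37.5%) it was below, against 18.1% and 27.3% of all measured genes.

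Promoter sequence is shown for the 4 ligands past 1.5-fold and for Cxcl2 and Cxcl3, which lie in the same cluster as Cxcl1, since the CXCR2 ligands are textbook NF-kB targets and their ratios here ranged widely. Each stretch runs from 250 bases before the gene's start to 50 bases after it, from the RefSeq table of GRCm38.p6, 5′ to 3′ on the gene's own strand. Capitals mark the NF-kB motif GGGNNTTTCC on either strand. On the plus strand unless stated, the windows are chr5:90890995-90891294 for Cxcl1, chr5:90903649-90903948 for Cxcl2, chr5:90785851-90786150 for Cxcl3 and chr11:83578587-83578886 (minus strand) for Ccl9, and those of Cx3cl1 and Cxcl12 are chr8:94771930-94772229 and chr6:117168285-117168584.
Cxcl1: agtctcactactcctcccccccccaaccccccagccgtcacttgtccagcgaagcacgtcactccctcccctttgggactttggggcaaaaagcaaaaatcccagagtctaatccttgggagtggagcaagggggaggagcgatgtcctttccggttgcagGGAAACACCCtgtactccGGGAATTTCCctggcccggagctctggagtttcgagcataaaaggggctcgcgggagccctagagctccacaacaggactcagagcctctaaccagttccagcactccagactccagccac
Cxcl2: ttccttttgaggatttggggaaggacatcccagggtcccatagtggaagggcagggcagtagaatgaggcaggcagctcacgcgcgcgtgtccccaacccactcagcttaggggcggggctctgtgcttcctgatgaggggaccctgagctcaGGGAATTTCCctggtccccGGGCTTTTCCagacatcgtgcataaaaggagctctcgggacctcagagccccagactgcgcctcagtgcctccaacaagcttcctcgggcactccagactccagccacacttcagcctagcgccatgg
Cxcl3: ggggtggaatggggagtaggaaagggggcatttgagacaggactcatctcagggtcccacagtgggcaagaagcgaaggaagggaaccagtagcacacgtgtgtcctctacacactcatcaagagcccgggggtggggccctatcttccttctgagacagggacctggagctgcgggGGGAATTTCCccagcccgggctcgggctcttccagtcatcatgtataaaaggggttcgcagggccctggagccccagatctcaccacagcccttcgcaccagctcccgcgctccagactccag
Ccl9: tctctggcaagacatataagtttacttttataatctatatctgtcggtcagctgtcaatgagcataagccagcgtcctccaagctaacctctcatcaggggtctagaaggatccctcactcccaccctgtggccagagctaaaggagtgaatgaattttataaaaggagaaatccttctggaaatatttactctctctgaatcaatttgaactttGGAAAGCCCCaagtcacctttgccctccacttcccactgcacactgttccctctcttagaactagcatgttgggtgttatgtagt
Cx3cl1: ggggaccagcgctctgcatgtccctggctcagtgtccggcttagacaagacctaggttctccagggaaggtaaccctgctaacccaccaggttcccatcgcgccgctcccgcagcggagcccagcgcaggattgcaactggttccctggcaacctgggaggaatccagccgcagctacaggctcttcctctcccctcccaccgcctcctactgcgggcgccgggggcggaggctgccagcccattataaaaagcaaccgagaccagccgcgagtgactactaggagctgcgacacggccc
Cxcl12: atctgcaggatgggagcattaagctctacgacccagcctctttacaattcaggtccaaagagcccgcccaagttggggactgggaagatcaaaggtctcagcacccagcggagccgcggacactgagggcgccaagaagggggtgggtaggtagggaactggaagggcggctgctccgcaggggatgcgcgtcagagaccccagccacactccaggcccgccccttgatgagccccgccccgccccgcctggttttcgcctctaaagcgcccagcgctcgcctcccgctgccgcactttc

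The letters GGGAATTTCC stood in the windows of Cxcl1, Cxcl2 and Cxcl3, beginning 71, 97 and 73 bases before the start. Cxcl1 held another match 89 bases before the start on the opposite strand, GGAAACACCC, and Cxcl2 another 78 bases before it, GGGCTTTTCC. Ccl9 held GGAAAGCCCC 35 bases before its start, and the windows of Cx3cl1 and Cxcl12 held no match. The motif was present in 1.63% of all 32851 windows of this length and in 5 of the 32 windows that matched 26 of the chemokine ligands by gene ID, the fifth being that of Ccl20. The other 10 ligands, among them the measured Cxcl5, Ccl2, Ccl7, Ccl5 and Cxcl16, have no entry in the promoter table used here and were not searched. The interferon-response motif GAAANNGAAA was in 3 of those 32 windows, those of Cxcl10, Cxcl14 and Ccl19, and in 3.44% of all windows. Among the measured ligands searched, those with the NF-kB motif had ratios of 1.12 (Ccl9), 0.87 (Cxcl1), 0.24 (Cxcl2) and -0.38 (Cxcl3). The ratios of those without it ran from -0.79 (Cx3cl1) to 0.40 (Cxcl14), and a link between motif and ratio was not tested. Cxcl1, Cxcl2 and Cxcl3 held the same 10 letters at like distances. The differences of Cxcl2 and Cxcl3 lay within counting error, so the side of 0 on which they lie is not settled. No window searched held both GGGNNTTTCC and GAAANNGAAA, and looser forms of these motifs were not searched. A match is a description of the letters and not of binding.

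Neutrophil-attracting ligands were dominated by a pair of genes. Cxcl5, a CXCR2 ligand made by stromal and epithelial cells, was at 579 FPKM in shGpx4 and 526 FPKM in shNC. It had the highest level of any chemokine ligand in shGpx4, where it ranked 63 among all 21878 genes, and its ratio was 0.14 (interval 0.11 to 0.17). Cxcl1, the CXCR2 ligand also known as KC, was at 319 FPKM in shGpx4 and 174 FPKM in shNC, 1.83 times the control level. Its ratio of 0.87 (interval 0.81 to 0.93, at least 6485 and 3278 reads) was exceeded by 155 of the 10997 measured genes. The 2 genes thus differed in proportion: the level of Cxcl1 was 0.550 times that of Cxcl5 in shGpx4 (counting interval 0.535 to 0.565) and 0.331 times in shNC (0.318 to 0.343).

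The other CXCR2 ligands were expressed at a small fraction of these levels. Cxcl2 (MIP-2) was at 3.16 FPKM in shGpx4 and 2.53 FPKM in shNC, a ratio of 0.24 whose counting interval of -0.20 to 0.86 holds 0. Cxcl3 was at 2.21 FPKM in shGpx4 and 3.19 FPKM in shNC, a ratio of -0.38 with an interval of -1.35 to 0.28 that also holds 0. Neither difference exceeded counting error at this depth. Cxcl15, a lung chemokine, was at 0.463 FPKM in shGpx4 and 0.143 FPKM in shNC, from at least 7 and 2 reads, and was not counted as measured. Summed over the 5 genes, the level was 904 FPKM in shGpx4 and 706 FPKM in shNC, and Cxcl1 made up 35.2% of that sum in shGpx4 and 24.6% in shNC. Ppbp, which encodes the CXCR2 ligand CXCL7 under a name that the rule for members does not take, was at 5.24 FPKM in shGpx4 and 1.45 FPKM in shNC. Its ratio was 1.35 (interval of the FPKM ratio 1.27 to 2.47), and 37 measured genes had a higher one.

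**Figure D1:**
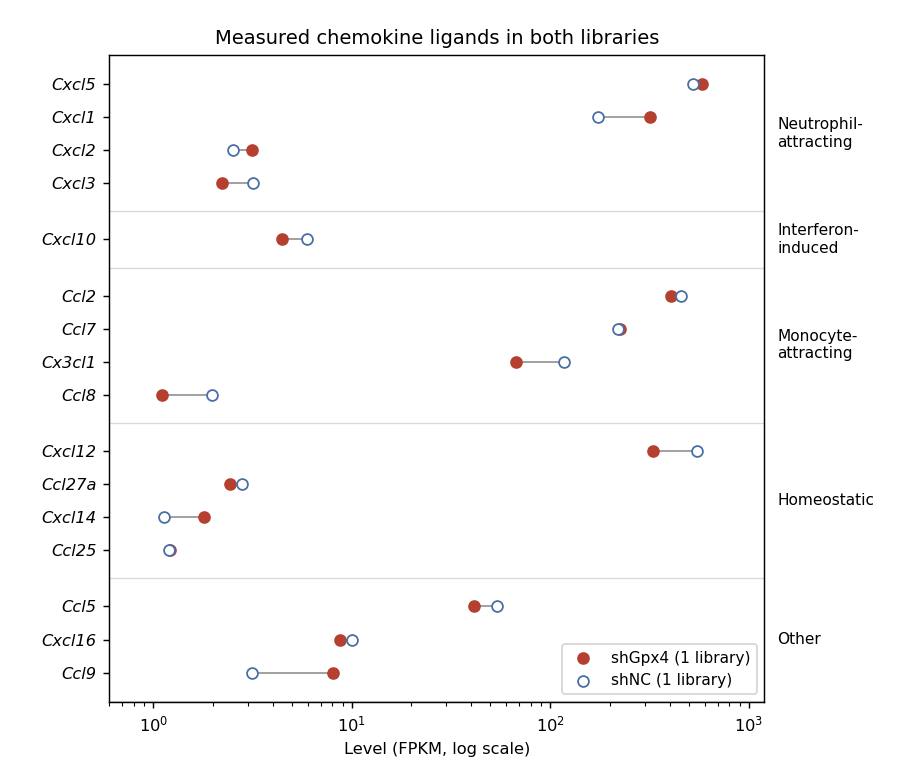
Level of each of the 16 measured chemokine ligands in FPKM on a log axis, by functional group, with shGpx4 as filled and shNC as open points (1 library each, so no error bar). The levels run from 1.10 to 579 FPKM in shGpx4, and the widest gaps between the points are those of Ccl9, Cxcl1, Cx3cl1, Cxcl12 and the low genes Ccl8 and Cxcl14.

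The ligands grouped here as interferon-induced, Cxcl10 and Cxcl9, were low. Cxcl10, a CXCR3 ligand that draws activated T cells, was at 4.43 FPKM in shGpx4 and 5.94 FPKM in shNC, a ratio of -0.35 with an interval of -0.81 to -0.04. Cxcl9, the ligand of the same receptor induced chiefly by interferon-gamma, was at 0.0808 FPKM in shGpx4 and 0.105 FPKM in shNC, from at least 5 and 6 reads. The third gene of this group, Cxcl11, is not among the genes listed under that name, so it has no value here. Cxcl10 was thus the only measured member, and it stayed within 1.5-fold.

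Monocyte-attracting ligands were abundant and unlike in their ratios, from near 0 for Ccl7 to well below it for Cx3cl1. Ccl2, the main CCR2 ligand (MCP-1), was at 406 FPKM in shGpx4 and 454 FPKM in shNC, a ratio of -0.16 (interval -0.21 to -0.11). Ccl7 (MCP-3) was at 224 FPKM in shGpx4 and 220 FPKM in shNC, a ratio of 0.03 whose interval of -0.04 to 0.10 holds 0. Of these neighbouring genes, Ccl2 stood at 1.81 times Ccl7 in shGpx4 (counting interval 1.74 to 1.88) and at 2.07 times in shNC (1.98 to 2.15). Ccl8, which in mouse acts mainly on CCR8, was at 1.10 FPKM in shGpx4 and 1.98 FPKM in shNC, a ratio of -0.51 with an interval of -2.01 to 0.25, and Ccl12 (MCP-5) was listed at 0 in both libraries.

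Cx3cl1 had the lowest ratio of this group on the scale of FPKM + 1, whereas on plain FPKM Ccl8, with far fewer reads, was at 55.5% of the control level. Cx3cl1 encodes fractalkine, which is made as a membrane-bound adhesion molecule and shed as an attractant for cells with CX3CR1. Its level was 67.3 FPKM in shGpx4 and 117 FPKM in shNC, or 57.6% of the control level, and its ratio was -0.79 (interval -0.87 to -0.72, at least 2255 and 3625 reads). Only 108 measured genes lay lower. The group's sum was 699 FPKM in shGpx4 and 792 FPKM in shNC, and the ratio of Ccl2 to Cx3cl1 levels was 6.03 in shGpx4 (counting interval 5.75 to 6.33) and 3.88 in shNC (3.73 to 4.04).

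**Figure D2:**
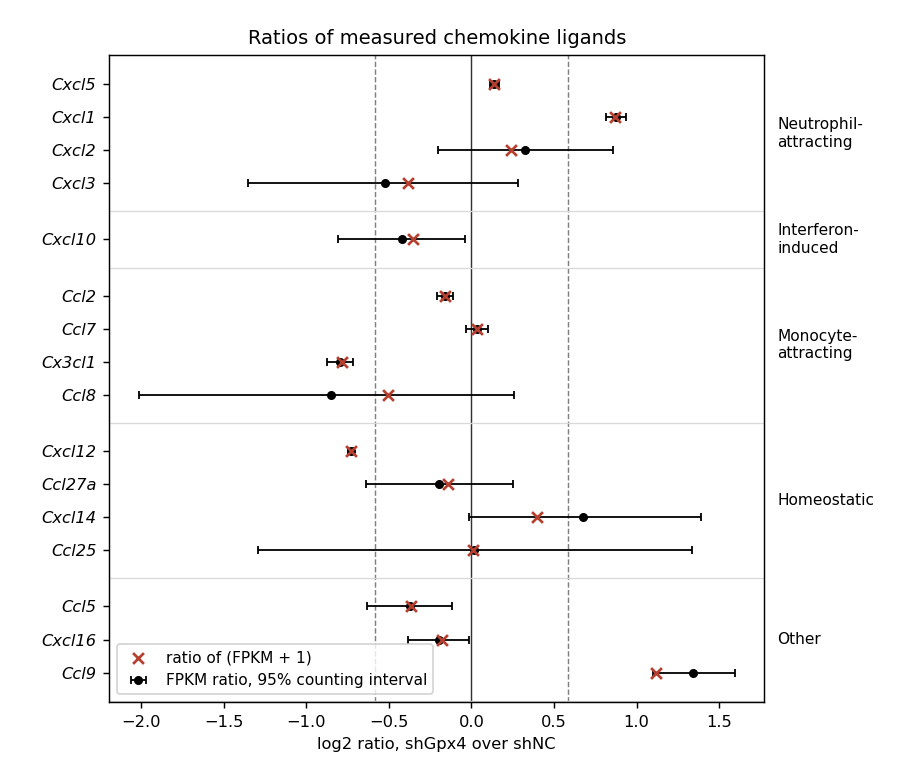
Log2 ratios of the 16 measured chemokine ligands, shGpx4 over shNC: black points are FPKM ratios with exact 95% counting intervals, red crosses are ratios of (FPKM + 1), and dashed lines mark 1.5-fold in each direction. The crosses of Ccl9 and Cxcl1 lie beyond the right line and those of Cx3cl1 and Cxcl12 beyond the left one, while the wide intervals of Ccl8, Ccl25, Cxcl3 and Cxcl14 hold 0.

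Homeostatic ligands were carried by Cxcl12, the CXCR4 ligand (SDF-1) that stromal cells use to retain haematopoietic cells. It was at 331 FPKM in shGpx4 and 549 FPKM in shNC, or 60.3% of the control level, a ratio of -0.73 (interval -0.75 to -0.71, at least 50539 and 77633 reads). In shNC it was the highest chemokine ligand, and in shGpx4 it came after Cxcl5 and Ccl2. Cxcl12 stood at 1.04 times the level of Cxcl1 in shGpx4 (counting interval 1.01 to 1.07) and at 3.16 times in shNC (3.05 to 3.27).

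Of the 10 homeostatic ligands listed, 3 others were measured, all below 3 FPKM. Cxcl14, a ligand made constitutively by epithelia, was at 1.81 FPKM in shGpx4 and 1.13 FPKM in shNC, a ratio of 0.40 with an interval of -0.01 to 1.39. Ccl27a, a skin T cell attractant, was at 2.44 FPKM in shGpx4 and 2.80 FPKM in shNC (-0.14). Ccl25, the CCR9 ligand of thymus and gut, was at 1.22 FPKM in shGpx4 and 1.21 FPKM in shNC (0.01). Both of these differences lay within counting error. In GENCODE M21 both genes overlap a gene on the opposite strand, Il11ra1 (47.2 FPKM in shGpx4, 71.4 FPKM in shNC) for Ccl27a and Elavl1 (9.64 and 8.68 FPKM) for Ccl25, so their values are uncertain where strand was not used in counting, and Ccl27a also has near-identical copies. Ccl28, the mucosal CCR10 ligand, was at 0.294 FPKM in shGpx4 and 0.414 FPKM in shNC.

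Of the 14 members outside these groups 3 were measured. Ccl9, a ligand of CCR1 known from mouse macrophages and osteoclasts, was at 8.0 FPKM in shGpx4 and 3.15 FPKM in shNC, 2.54 times the control level. Its ratio of 1.12 was the highest of the 16 measured ligands (interval of the FPKM ratio 1.10 to 1.59, at least 513 and 187 reads), and 78 measured genes had a higher one. Ccl5 (RANTES), which draws T cells and monocytes, was at 41.5 FPKM in shGpx4 and 53.7 FPKM in shNC, a ratio of -0.37 (interval -0.63 to -0.12). Cxcl16, a membrane-bound ligand of CXCR6 that also acts as a scavenger receptor, was at 8.74 FPKM in shGpx4 and 10.0 FPKM in shNC (-0.18, interval -0.38 to -0.01).

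The summed level of all 36 ligands was close in the libraries, at 2003 FPKM in shGpx4 and 2127 FPKM in shNC, while its makeup differed. Neutrophil-attracting ligands formed 45.1% of the sum in shGpx4 and 33.2% in shNC, and homeostatic ligands 16.8% and 26.1%. Monocyte-attracting ligands formed 34.9% in shGpx4 and 37.2% in shNC, the remaining members 2.92% and 3.18%, and the interferon-induced pair 0.225% and 0.284%. The 6 most abundant ligands, namely Cxcl5, Cxcl12, Ccl2, Cxcl1, Ccl7 and Cx3cl1, held 96.2% of the sum in shGpx4 and 95.9% in shNC.

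**Figure D3:**
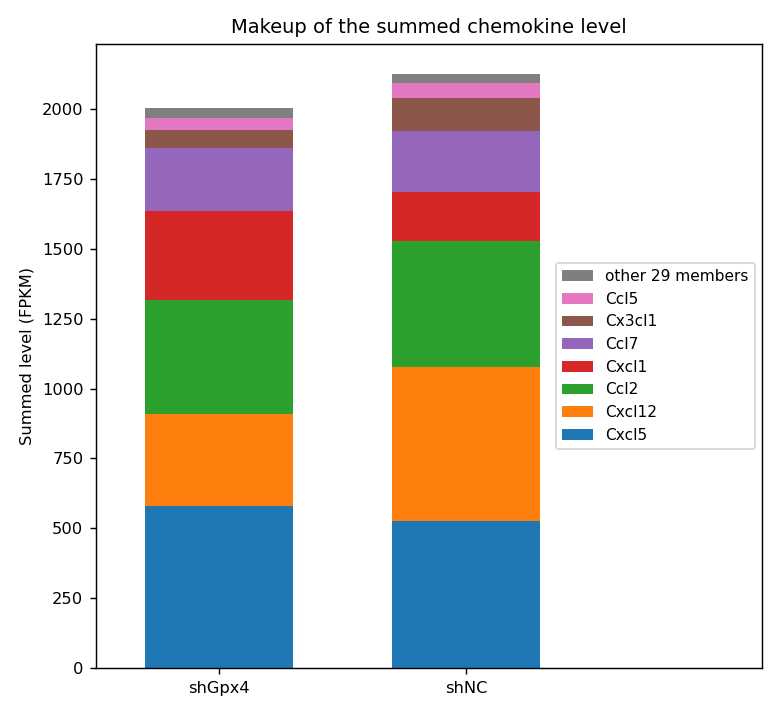
Summed level of the 36 chemokine ligands in FPKM, shGpx4 left and shNC right, with the 7 most abundant ligands as segments and the other 29 members together. The bars reach 2003 and 2127 FPKM. The Cxcl1 segment is 15.9% of the shGpx4 bar and 8.18% of the shNC bar, and the Cxcl12 segment 16.5% and 25.8%.

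Most of these genes lie in clusters that arose by duplication, and neighbours in a cluster often had unlike ratios. In the RefSeq annotation of GRCm38.p6, chromosome 5 holds Cxcl5 (90759298 to 90761625), Ppbp, Pf4, Cxcl3, Cxcl15, Cxcl1 (90891245 to 90893121) and Cxcl2 in that order, with 10.8 kb between Cxcl1 and Cxcl2. Along this row the measured ratios were 0.14, 1.35 for Ppbp, -0.38, 0.87 and 0.24. The counting intervals of Cxcl3 (-1.35 to 0.28) and Cxcl2 (-0.20 to 0.86) hold 0 and the ratio of Cxcl5. Whether these 3 genes differ in ratio is therefore not settled. Chromosome 11 holds Ccl2, Ccl7, Ccl11, Ccl12, Ccl8 and Ccl1 and, 1346 kb farther on, Ccl5, Ccl9 (83572917 to 83578636), Ccl6, Ccl3 and Ccl4. In the first row only Ccl2, Ccl7 and Ccl8 were measured, and in the second Ccl5 and Ccl9, which lie 42.4 kb apart and had ratios of -0.37 and 1.12. The level of Ccl9 was 0.193 times that of Ccl5 in shGpx4 (counting interval 0.165 to 0.226) and 0.0586 times in shNC (0.0485 to 0.0708). On chromosome 8, Cx3cl1 (94772180 to 94782427) lies between Ccl22 and Ccl17, which were at 0.0259 and 0.182 FPKM in shGpx4 and at 0 and 0.255 FPKM in shNC. Cxcl12 stands alone on chromosome 6 (117168535 to 117181368).

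**Figure D4:**
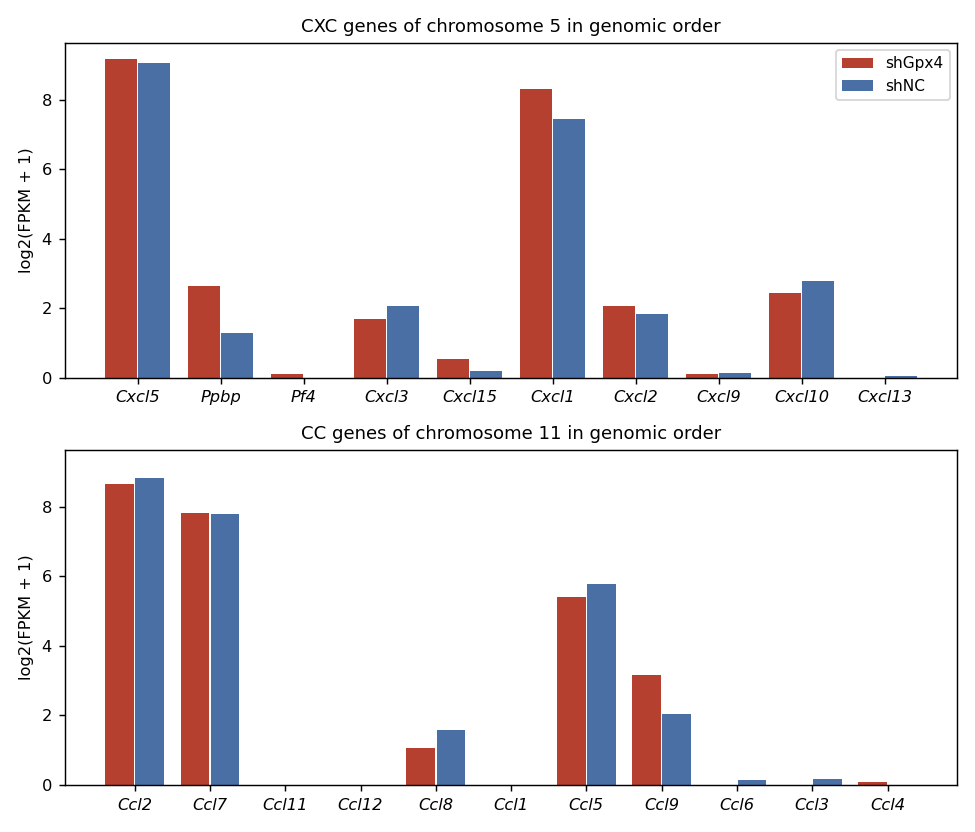
Levels as log2(FPKM + 1) of the CXC genes of chromosome 5 and the CC genes of chromosome 11, in genomic order without scale, with shGpx4 as the left and shNC as the right bar of each pair. Abundant genes (Cxcl5, Cxcl1, Ccl2, Ccl7, Ccl5) stand beside genes at or near 0 (Pf4, Ccl11, Ccl12, Ccl1), and the gap in favour of shGpx4 is widest for Ppbp, Ccl9 and Cxcl1.

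The remaining ligands gave few reads. Ccl17 was at 0.182 FPKM in shGpx4 and 0.255 FPKM in shNC and Ccl20 at 0.117 and 0.253 FPKM, from at least 10 and 13 and at least 1 and 2 reads. Ccl19, Ccl22 and Ccl4 were above 0 in shGpx4 alone, at 0.195, 0.0259 and 0.0531 FPKM, each from at least 1 read. Ccl3, Ccl6 and Cxcl13 were above 0 in shNC alone, at 0.128, 0.106 and 0.0436 FPKM, from at least 1, 3 and 1 reads. In the library at 0, 3 reads would give between 0.0840 and 0.634 FPKM for the first trio and between 0.0980 and 0.356 FPKM for the second, each value an upper limit. The counting intervals of these 6 ligands all hold 0 at the fewest reads that give these values, so no difference was detectable at this depth. Ccl1, Ccl11, Ccl12, Ccl21a, Ccl21b, Ccl24, Ccl26, Ccl27b and Cxcl17 were listed at 0 in both libraries. They include the eosinophil attractants Ccl11 and Ccl24 and the lymphoid Ccl21 copies.

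Receptors for these ligands were nearly absent. Of 18 signalling chemokine receptors none was measured and 15 were listed at 0 in both libraries, Cxcr2, Ccr2, Ccr1 and Cxcr3 among them. Cxcr4, the receptor of CXCL12, was at 0.0253 FPKM in shGpx4 and at 0 in shNC, Cx3cr1 at 0 and 0.0135 FPKM, and Ccr10 at 0.0272 and 0.0588 FPKM. Of 6 atypical receptors and relatives 3 were measured. Ackr3, which scavenges CXCL12, was at 20.0 FPKM in shGpx4 and 15.9 FPKM in shNC (0.31, interval 0.19 to 0.47). Ackr4, which scavenges CCL19, CCL21 and CCL25, was at 30.2 FPKM in shGpx4 and 25.7 FPKM in shNC (0.23, interval 0.17 to 0.31), and the chemerin receptor gene Cmklr1 at 1.77 and 2.26 FPKM (-0.23).

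Regulators of chemokine transcription and mRNA decay lay close to 0. All 20 listed were measured, and none passed 1.5-fold in either direction, against 2.99% higher and 1.96% lower of all measured genes. Their ratios ran from -0.31 to 0.28 with a median of 0.05. The NF-kB subunit genes Rela (36.4 FPKM in shGpx4, 33.7 FPKM in shNC), Nfkb1 (28.2 and 25.9 FPKM) and Nfkb2 (21.6 and 20.1 FPKM) had ratios of 0.10, 0.12 and 0.10. The feedback inhibitor Nfkbia was at 57.3 FPKM in shGpx4 and 70.6 FPKM in shNC (-0.30). Zfp36, whose protein destabilizes cytokine mRNAs, was at 25.6 FPKM in shGpx4 and 20.9 FPKM in shNC (0.28).

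Of 17 cytokines and receptors that induce chemokines 10 were measured. Of these 1 was at least 1.5-fold higher (2.99% of all measured genes) and none at least 1.5-fold lower (1.96%). That gene was Il6, at 2.01 FPKM in shGpx4 and 0.311 FPKM in shNC (1.20). At the smallest whole reads that give these values, 7 and 1, the interval of the FPKM ratio was -0.26 to 8.19, which holds 0. True reads may be a common multiple of these, which would narrow the interval, so whether the difference exceeds counting error is not settled. Il6 reached the measured mean through the shGpx4 library alone. Il1a, Il1b, Il17a, Il17f, Ifng and Ifnb1 were listed at 0 in both libraries and Tnf was at 0.0284 and 0.0307 FPKM. Receptors of these cytokines were present. Il1r1 was at 40.7 FPKM in shGpx4 and 34.0 FPKM in shNC (0.25) and Tnfrsf1a at 158 and 144 FPKM (0.13). Il17ra was at 11.8 and 10.8 FPKM (0.12), Ifnar1 at 16.1 and 12.1 FPKM (0.38) and Ifngr1 at 36.0 and 44.0 FPKM (-0.28). Tlr4, which is not a receptor of these cytokines, was at 24.0 and 19.8 FPKM (0.26).

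Proteases known to cleave or shed chemokines differed in both directions. Of 10 listed 7 were measured. At least 1.5-fold higher were 2.99% of all measured genes and 3 of these 7. Those were the stromelysin gene Mmp3 (12910 FPKM in shGpx4, 5144 FPKM in shNC, 1.33), the collagenase gene Mmp13 (252 and 102 FPKM, 1.30) and the macrophage elastase gene Mmp12 (2.55 and 0.242 FPKM, 1.51), which reached the measured mean through the shGpx4 library alone. No measured protease was at least 1.5-fold lower, against 1.96% of all measured genes. The gelatinase gene Mmp9, however, fell below the measured mean, at 0.179 FPKM in shGpx4 and 0.805 FPKM in shNC. Its ratio was -0.61 (interval of the FPKM ratio -3.16 to -1.27, at least 13 and 54 reads). Mmp2, which cleaves CXCL12 and CCL7, was at 97.8 FPKM in shGpx4 and 121 FPKM in shNC (-0.30). Adam10 and Adam17, which shed fractalkine and CXCL16, had ratios of 0.00 and 0.09.

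**Figure D5:**
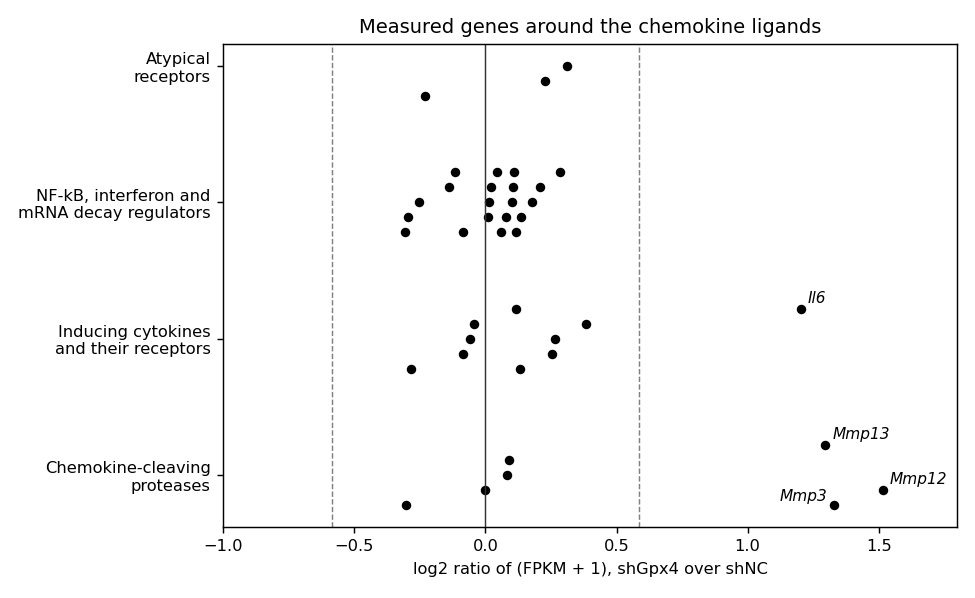
Log2 ratio of (FPKM + 1), shGpx4 over shNC, of each measured atypical receptor (3), regulator (20), inducing cytokine or receptor (10) and protease (7), spread vertically for legibility, with dashed lines at 1.5-fold. Points lie between the lines except Il6, Mmp3, Mmp12 and Mmp13.

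Since bulk RNA was sequenced, fewer cells of a type and less RNA per cell cannot be told apart. Of 12 leukocyte markers 4 were measured, of which Cd14 was at 17.1 FPKM in shGpx4 and 9.19 FPKM in shNC, Lyz2 at 1.86 and 7.67 FPKM and H2-Ab1 at 5.35 and 11.1 FPKM, while Cd68 barely differed (3.80 and 3.90 FPKM). The summed level of the 12 was 28.6 FPKM in shGpx4 and 32.8 FPKM in shNC, and without Cd14 the other 11 summed to 11.4 and 23.6 FPKM. The macrophage gene Adgre1 was at 0.0132 FPKM in shGpx4 and 0.171 FPKM in shNC (interval of the FPKM ratio -9.11 to -0.94, at least 1 and 12 reads). The pan-leukocyte gene Ptprc, the T cell gene Cd3e, the B cell gene Cd79a and the neutrophil gene S100a9 were listed at 0 in both libraries. Of 5 endothelial markers only Eng was measured (6.67 and 3.22 FPKM), and Cdh5 was listed at 0 in both. Of 6 synovial and tendon markers 5 were measured. At least 1.5-fold higher were 3 of these, Thy1 (0.59), Pdpn (0.61) and Thbs4 (1.18), and none was lower. Over all measured genes the shares were 2.99% and 1.96%. Thy1 and Pdpn barely passed the rule, and Prg4 (203 FPKM in shGpx4, 135 FPKM in shNC, 0.58) just missed it. The sum over the 6 markers was 409 FPKM in shGpx4 and 257 FPKM in shNC. Of the chondrocyte markers, Col2a1 had a ratio of 2.58, exceeded by 1 measured gene. Lect1 was at 270 FPKM in shGpx4 and 124 FPKM in shNC (1.12), while Comp (-0.23) and Sox9 (-0.25) lay below 0. Several of the markers named here differed between the same libraries as Cxcl1, Ccl9, Cx3cl1 and Cxcl12. Their part in the differences of those ligands was not tested.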

How the data were processed

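Poly(A) RNA of 1 shGpx4 and 1 shNC culture was sequenced from stranded libraries, per the labels' protocols. The authors deposited 1 table of FPKM per library, and per the submitters' processing notes Trimmomatic, HISAT2, Cufflinks and the build GRCm38 were used. Their versions, filters and use of strand when counting are not stated there or in the labels, so overlapping genes and near-identical copies may share reads.

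Library totals were worked out from the fixed steps between low FPKM values, using 322 genes. With these totals the FPKM values of all 15153 genes above 0 became whole reads to within 6.4e-10. True reads may be a common multiple of the smallest reads used here, which would make the Clopper-Pearson intervals narrower, while error other than counting is not in them and would make them wider.

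Ratios used a pseudocount of 1 FPKM, a minimum mean of 1 FPKM and a size rule of 1.5-fold, with no test. All 36 members are reported. The members and lists were chosen with earlier results of these data known. The named genes are Gpx4, the ligands and, of the other lists, the measured genes with large ratios or a direct link to a measured ligand. The computation was tested on simulated data. The software was Python 3.11.15 with pandas 2.3.3, scipy 1.17.1, numpy 2.4.6 and, for figures, matplotlib 3.10.9.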

Additional observations from a re-analysis of the deposited data

How the results depend on the processing

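Over 25 results, 8 alternatives gave 166 values. Of 102 ratios of single genes 96 stayed within the gene's counting interval, all 16 counts stayed within 1.5 times, and of 48 medians, which have no counting interval, 40 stayed within 1.5 times. No ratio and no median changed sign. Ccl9 (1.12 to 1.34), Cxcl1 (0.87 to 0.91), Cx3cl1 (-0.80 to -0.74) and Cxcl12 (-0.73 to -0.68) were past 1.5-fold under the main setting and under each other scaling, pseudocount or read-based ratio tried. With a pseudocount of 0.1, and with ratios of recovered reads with 0.5 reads added, 3 ligands were at least 1.5-fold higher and 3 lower, since Cxcl14 (up to 0.66) and Ccl8 (down to -0.83) were added. Both have counting intervals that hold 0. The 6 ratios outside the counting interval are those of Cxcl5 (up to 0.18) and Cxcl12 under centring on the median, the 75th percentile and a trimmed mean of log ratios, which shifted all ratios by about 0.04. These scalings also put the homeostatic median of -0.07 between -0.04 and -0.03, and that of all measured ligands at about -0.11, against -0.15. With no filter the median of the ligands became -0.087 and the interferon median of -0.35 became -0.19. With a mean of at least 5 FPKM the homeostatic median became -0.73, from Cxcl12 alone, the neutrophil median of 0.19 became 0.50 and the monocyte median of -0.33 became -0.16. No paired analysis was possible because each group has 1 library, and for the same reason no library could be left out. At this depth the intervals of Cxcl2, Cxcl3, Ccl7, Ccl8, Cxcl14, Ccl25 and Ccl27a hold 0.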
